A study of Mus musculus with 171 samples.

Results

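Solute carriers, the Slc genes, are membrane proteins that move sugars, amino acids, ions, metals, nucleosides, fatty acids and drugs across cell and organelle membranes. The family measured here comprised 111 genes read by 137 probes of a mouse oligonucleotide array, among 5751 genes with a single platform symbol on 7540 probes. Members were all genes whose symbol starts with Slc and a number, apart from 6 such genes left out by the selection rule, and 1 probe stood for each gene. Slc9a3r1 and Slc9a3r2, which encode scaffold proteins that anchor transporters at the membrane, and Slc6a19os, an antisense transcript, fall under the naming rule without being carriers.

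In liver, kidney and gut, solute carriers sit in the apical and basolateral membranes of polarised cells and in mitochondria. The apical carriers of the small intestine and of the renal proximal tubule take up glucose and amino acids with sodium or in exchange, and basolateral partners release them to the blood. Hepatocytes use carriers of the Slc25 family to feed the urea cycle and other pathways divided between mitochondria and cytosol, and metal carriers of the Slc11, Slc30, Slc31, Slc39 and Slc40 families set the entry and exit of iron, zinc and copper.

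The data were 2-colour arrays of 88 mouse tissue sources, each hybridised against a universal mouse reference RNA, 83 of them on 2 arrays. A single array was at hand for 5: activated CD4 T cells, pancreatic islets, jejunal tumour Jej3, and duodenal tumours Duo72 and Duo59. The adult comparison used 36 sources of 22 organs, among them 8 regions of the nervous system, duodenum, proximal jejunum, ileum, cecum, proximal and distal colon, kidney, liver of fed animals, heart, skeletal muscle, brown fat, testis, lung, spleen, thymus and ficoll-separated blood mononuclear cells. Other tested sources were kidney at embryonic day 18.5 and postnatal day 2, folic acid-injured kidney, liver at embryonic day 14 and liver 24 hours into regeneration. Suckling intestine at postnatal day 14, brain at embryonic day 18.5 and postnatal day 2, embryonic heart, and lactating and involuting mammary gland were also tested. So were 14 duodenal, jejunal and colon tumours. Shown without a test were liver at postnatal day 14, and sham-operated and regenerating liver at 6 hours. The same held for fetal intestine at embryonic day 16.5, newborn intestine at postnatal day 1 and developing lung. The ranking over all 88 sources also held, among others, ileum after bowel or sham resection, and hyperdynamic transgenic heart with its control. Strain was given for the spleen (C57) and for the injured kidney (FVB/N), wild-type origin for the embryonic heart, a proximal jejunum source numbered 46 and the fetal brain, and the labels used here gave no genotype for the tumours.

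Values are deposited log ratios, centred so that 8709 of 8734 probes had a median within 0.001 of 0, and neither the log base nor the direction is stated. The markers of kidney tubule, hepatocyte, enterocyte, neuron, heart muscle, skeletal muscle and lung were each highest in their own organ, so a higher value was read as more RNA in the tissue than in the reference. That direction is likely rather than settled, because it is not stated and was read from the markers. With the sign turned every "higher" below would read "lower". Of 14535 pairs of arrays, 356 correlated below -0.3, which does not decide the sign. The brown fat label did not pass this check: its measured marker Cidea averaged 1.7 there, below thymus (3.28) and thyroid (2.36). No germ cell or mammary marker of the lists used had a value, so the testis and mammary labels could not be checked. Arrays held between 5137 and 8658 values (median 8638), their medians lay between -0.92 and 0.24, and both arrays of a source correlated at 0.381 to 0.987 (median 0.869). Whether a source's arrays hold RNA of different animals is not stated in the labels, so p-values measure the spread between arrays, which may be technical. Because each probe was centred, a gene's values can be compared between organs but not with those of another gene. In whole tissue, a lower value can mean fewer cells of a type or less RNA per cell, which cannot be told apart.

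Liver and small intestine held the highest organ mean for the most Slc genes. Of the 110 members with values in all 22 adult organs, 23 (20.9%) were highest in liver, against 9.45% of all 5702 genes with such values. The small intestine was highest for 19 members (17.3%, against 6.73% of all genes), the spleen for 11 (10%, against 13.3%), the large intestine for 9 (8.18%, against 5.3%) and blood mononuclear cells for 8 (7.27%, against 8.1%). Testis and thymus, which led for 11.5% and 14.7% of all genes, led for 3 and 6 members. The kidney led for 3 members (2.73%, against 1.42% of all genes): Slc3a1, Slc7a7 and Slc16a12, a monocarboxylate-type carrier. Nervous tissue led for 2 (1.82%, against 4.33%), Slc38a1, a neutral amino acid carrier, and Slc30a9, a zinc-transporter homologue. The spread from the lowest to the highest organ had a median of 2.02 for members and 2.04 for all genes, so the family as a whole was about as organ-dependent as other genes on the array. With the sign turned, the ranking would instead follow the lowest organ means: the liver was lowest for 23 members (20.9%, against 21.5% of all genes), the thymus for 19 (17.3%, against 9.52%), and the small intestine for 1 (0.909%, against 0.789%). Across all 88 sources, 28 members (25.2%, against 11.1% of all genes) were highest in a source of normal small intestine and 16 (14.4%, against 7.06%) in liver. Intestinal tumours led for 16 (14.4%, against 14.8%), 7 of those in the tumour Jej3, which has 1 array.

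**Figure D1:**
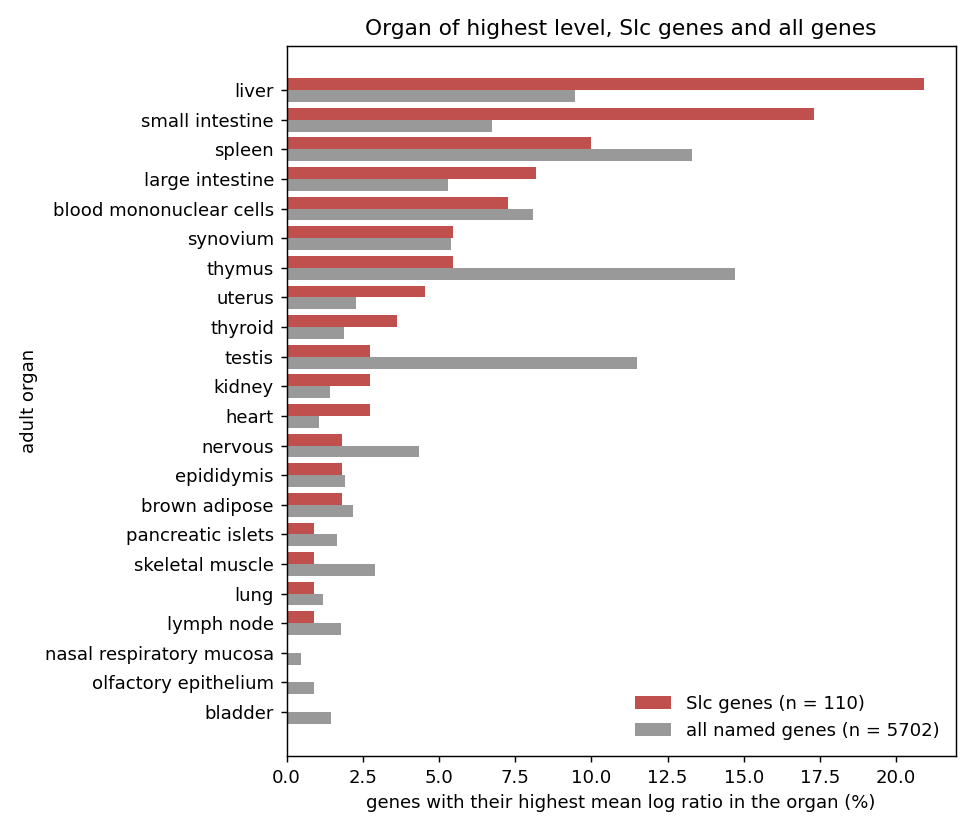
Share of Slc genes (red bars, 110 genes) and of all named genes (grey bars, 5702 genes) whose mean log ratio was highest in each of the 22 adult organs, in percent. Liver (20.9% of members) and small intestine (17.3%) stand above their shares of all genes (9.45% and 6.73%), while thymus and testis stand below theirs.

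For 30 members (27.3%, against 34.4% of all genes) every array of the top organ lay above every array of all other organs. Liver had 10 of them (9.09% of members, against 4.77% of all genes set apart there): Slc27a5, Slc26a1, Slc7a2, Slc22a30, Slc25a25, Slc17a2, Slc25a47, Slc38a4, Slc25a13 and Slc25a15. The small intestine had 5 (4.55%, against 1.21%), Slc5a1, Slc6a8, Slc31a1, Slc23a4 and Slc27a4. Thymus and testis had 2 each (1.82%, against 6.33% and 6.66%), as did large intestine, spleen, thyroid, brown fat and blood mononuclear cells, and synovium had 1. Organ spreads were widest for Slc5a1, the intestinal sodium-glucose cotransporter (7.46 between the highest and lowest organ), Slc27a5, which joins bile acids and very long-chain fatty acids to coenzyme A (6.34), Slc9a3r1 (5.21), Slc25a1, the mitochondrial citrate carrier (5.21), and Slc44a2, a choline-transporter-like protein (4.81).

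**Figure D2:**
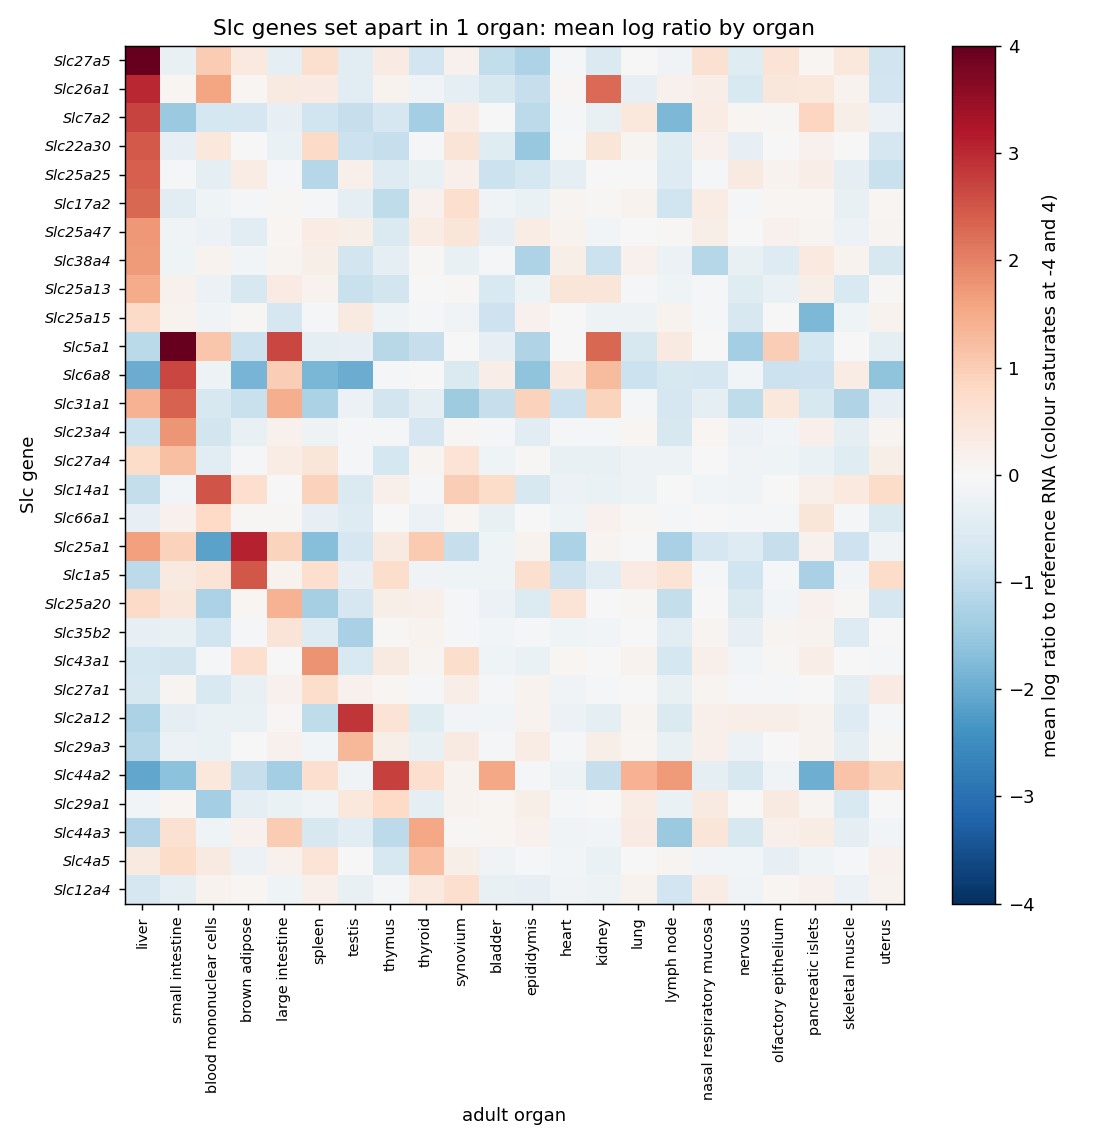
Organ means of the 30 Slc genes whose arrays in 1 adult organ all lay above those of the other 21 organs, as deposited log ratios on a colour scale, with genes in rows ordered by that organ. Liver holds 10 rows and small intestine 5; Slc5a1 in small intestine (6.12) and Slc27a5 in liver (5.10) are the strongest cells.

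Outside liver and small intestine, the genes set apart marked single organs on the probes used. In blood mononuclear cells these were Slc14a1, a urea transporter (mean 2.53), and Slc66a1, a lysosomal exporter of cationic amino acids (0.81). Brown fat had Slc25a1 (3.07) and the glutamine transporter Slc1a5 (2.48), and testis had Slc2a12 (2.85) and the nucleoside transporter Slc29a3 (1.33). Thymus had Slc44a2 (2.72) and the equilibrative nucleoside transporter Slc29a1 (0.80), spleen had Slc43a1 (1.79) and the fatty acid carrier Slc27a1 (0.69), and thyroid had Slc44a3 (1.55) and the bicarbonate cotransporter Slc4a5 (1.21). Large intestine had Slc25a20 (1.38) and Slc35b2, which brings activated sulfate into the Golgi (0.50), and synovium had the potassium-chloride cotransporter Slc12a4 (0.68). Other probes moved some of these peaks. Both others of Slc29a1 were highest in liver (2.23 and 1.64), that of Slc14a1 in bladder (1.26) and that of Slc27a1 in thymus (0.84). Those of Slc2a12 were highest in nasal respiratory mucosa.

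By substrate, the 17 mitochondrial carriers contributed 6 of the 30 genes set apart in 1 organ, and 6 of the 17 were highest in liver. Of all 5702 genes, 34.4% were set apart in 1 organ, 9.45% were highest in liver and 6.73% in small intestine. The mitochondrial carriers were thus set apart about as often as all genes, and the counts of these small groups were not tested. Their widest organ spreads were those of Slc25a1, Slc25a5, Slc25a25 and Slc25a36. Amino acid carriers (13 genes) contributed 4 and had a median organ spread of 2.35, widest for Slc7a2, Slc3a1, Slc7a7 and Slc1a5. Inorganic ion carriers (12 genes) contributed 3 with a median spread of 1.83, widest for Slc26a1, the phosphate cotransporter Slc20a2, Slc8b1 and the sodium-proton exchanger Slc9a7. Metal carriers (13 genes) contributed 1 with a median spread of 1.99, widest for the zinc importer Slc39a4, the iron exporter Slc40a1, Slc31a1 and the zinc exporter Slc30a4. Carriers of vitamins, nucleosides and nucleotide sugars (17 genes) contributed 4, and 5 of them were highest in small intestine, with Slc35f2, Slc46a3, Slc23a4 and Slc35f5 widest. Sugar carriers (9 genes) had a median spread of 2.35, led by Slc5a1, the facilitative glucose transporter Slc2a2, the hexose transporter Slc2a12 and Slc50a1. Among 10 carriers of organic acids and lipids, Slc27a5, Slc10a7, Slc16a12 and Slc16a6 were widest, and among 8 of neurotransmitters and osmolytes, Slc6a8, Slc17a2, Slc17a3 and Slc6a9, a glycine transporter.

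In the liver, Slc27a5, Slc7a2, Slc26a1 and Slc2a2 stood furthest above the mean of other organs. The comparison of liver with the mean of the 21 other organs used limma and called a gene at a Benjamini-Hochberg adjusted p below 0.05 and a difference of at least 1, which is 2-fold if the base is 2. Under it 19 members were higher and 18 lower as deposited, where 6.75% of all probes were higher and 15.2% lower. The liver arrays as a whole lay 0.37 lower than those of other organs. After each array's median was set to 0, here called centred, 35 members were higher and 8 lower (13.8% and 6.19% of probes), and 19 higher and 8 lower were called under both scalings. Without the first spleen array, which leaves the other with 5495 values and lets fewer members pass the value filter, the deposited counts were 23 in liver, 6 in kidney, 10 in large intestine, 7 in testis, 3 in brown fat, 2 in nervous tissue and 1 in lung. Differences below are centred unless called deposited wherever the shift of all probes exceeded 0.1.

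Slc27a5 read 5.21 and 5.00 on the 2 liver arrays, against -1.67 to 1.46 on all arrays of other organs, a difference of 5.56 ± 0.30 (SE, adjusted p = 1.6e-29). The liver arrays lay clear of every other organ. Slc7a2, a cationic amino acid transporter, read 2.58 and 2.81 against at most 0.86 elsewhere (difference 3.45 ± 0.22, adjusted p = 2.6e-25). Slc38a4, which carries neutral amino acids, read 1.58 and 1.80 against at most 0.40 (difference 2.31 ± 0.28, adjusted p = 2.3e-11). Both amino acid carriers were thus separate from all other organs measured. Slc26a1, a sulfate and oxalate exchanger, read 3.02 on both arrays, and its next organ was the kidney, where arrays reached 2.51. Slc2a2, the glucose transporter of hepatocytes, enterocytes and beta cells, read 2.57 and 2.66 in liver and overlapped with the jejunum, where it reached 3.34.

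The mitochondrial carriers higher in liver under both scalings were Slc25a25, an ATP-magnesium/phosphate carrier (2.98 ± 0.12), Slc25a1 (2.21 ± 0.15), Slc25a47 (2.08 ± 0.16), Slc25a13, the aspartate/glutamate carrier that serves the urea cycle (2.01 ± 0.14), and Slc25a23 (1.58 ± 0.09). Slc25a15, the ornithine carrier of the urea cycle, was called only after centring (1.32 ± 0.38, adjusted p = 0.0019, against 0.96 as deposited), although its liver arrays lay above all other organs. The anion carriers Slc22a30 (2.98 ± 0.18) and Slc17a2 (2.74 ± 0.19) were also set apart. Metal carriers Slc31a1 for copper (2.03 ± 0.15) and Slc40a1, the iron exporter (1.56 ± 0.21), were higher as well. Slc25a23 (0.913) and Slc40a1 (0.945) lost the call after quantile normalization.

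The 8 members lower in liver under both scalings were Slc44a2 (-1.86), Slc25a36, a mitochondrial pyrimidine nucleotide carrier (-1.63), Slc35f2 (-1.54), Slc7a1, the widespread cationic amino acid transporter (-1.36), Slc38a1 (-1.28), Slc6a8, the creatine transporter (-1.24), Slc7a7, the light chain of a basolateral exchanger of cationic amino acids (-1.19), and Slc50a1, a sugar transporter (-1.04). After quantile normalization Slc38a1 (-0.998), Slc6a8 (-0.975), Slc7a7 (-0.991) and Slc50a1 (-0.934) lost the call. Slc50a1 also lost it with the mean of all probes (-0.755). Slc7a1 read -1.70 and -2.11 in liver and not below -1.31 in any other organ. On the probes used, the 2 cationic amino acid transporters therefore lay at opposite ends in liver, Slc7a2 highest and Slc7a1 lowest. The other probe of Slc7a1 was lowest in kidney (-1.15) and read -0.70 in liver. That of Slc7a2 was highest in testis (1.19) and read 0.34 in liver.

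At embryonic day 14 the liver source is described by its submitters as hematopoietic, and erythroid markers averaged 4.69 against 0.0505 in adult liver, and the hepatocyte marker Apoc3 read -0.0914 against 4.04. Their part in the differences below was not tested. Against adult liver, 15 members were higher and 22 lower as deposited (19.4% and 12.1% of probes). Centred, with a shift of 0.40, 6 were higher and 41 lower (9.44% and 21%), and 6 and 22 were called under both scalings. Slc27a5 read 0.91 and 0.55 in fetal liver against 5.21 and 5.00 in adult (difference -4.77 ± 0.42, adjusted p = 4.2e-17). Slc38a4 read -1.87 and -2.20 against 1.58 and 1.80 (difference -4.12 ± 0.39, adjusted p = 9.3e-16). No fetal array of either gene came near an adult one. Slc7a2 (-2.97), Slc25a25 (-2.90), Slc22a30 (-2.76), Slc26a1 (-2.52), Slc17a2 (-2.42) and Slc2a2 (-2.29) were lower too. This comparison shares the adult liver arrays with that of liver against other organs. After quantile normalization of the arrays 5 members were higher and 10 lower, all called as deposited: Slc26a1 (-0.759, adjusted p = 0.047) and Slc2a2 (-0.716, adjusted p = 0.1) lost the call, as did Slc25a13 and Slc25a47.

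Higher in fetal liver were Slc43a1, a carrier of large neutral amino acids (2.11 ± 0.27, adjusted p = 1.8e-10), Slc7a1 (1.57), Slc7a7 (1.20), Slc38a1 (1.11), Slc2a12 (1.03) and Slc3a2, the heavy chain shared by several amino acid exchangers (1.02). Slc43a1 read 1.78 and 1.82 in fetal liver, -0.44 and -0.20 at postnatal day 14 and -0.68 and -0.74 in the adult, and the spleen was its highest adult organ (1.97 and 1.61). Slc7a1 read 0.05 and 0.08 in fetal liver but -2.15 and -2.21 at postnatal day 14.

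At postnatal day 14 the carriers did not stand together. Slc27a5 (3.77 and 4.04), Slc26a1 (2.89 and 3.11) and Slc25a25 (2.18 and 1.99) were above their fetal arrays. Slc38a4 read -1.99 and -1.87 and Slc22a30 read -0.40 and -0.94, against fetal values of 0.07 and 0.11 for the latter. The juvenile arrays as a whole lay lower, with medians of -0.613 and -0.659 against 0.0405 and -0.00595 for the fetal ones. Centred, Slc38a4 averaged -1.29 in juvenile, -2.055 in fetal and 2.07 in adult liver. Centred, Slc22a30 averaged -0.0368 in juvenile, 0.0743 in fetal and 2.84 in adult liver. These stages were not tested against each other.

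**Figure D3:**
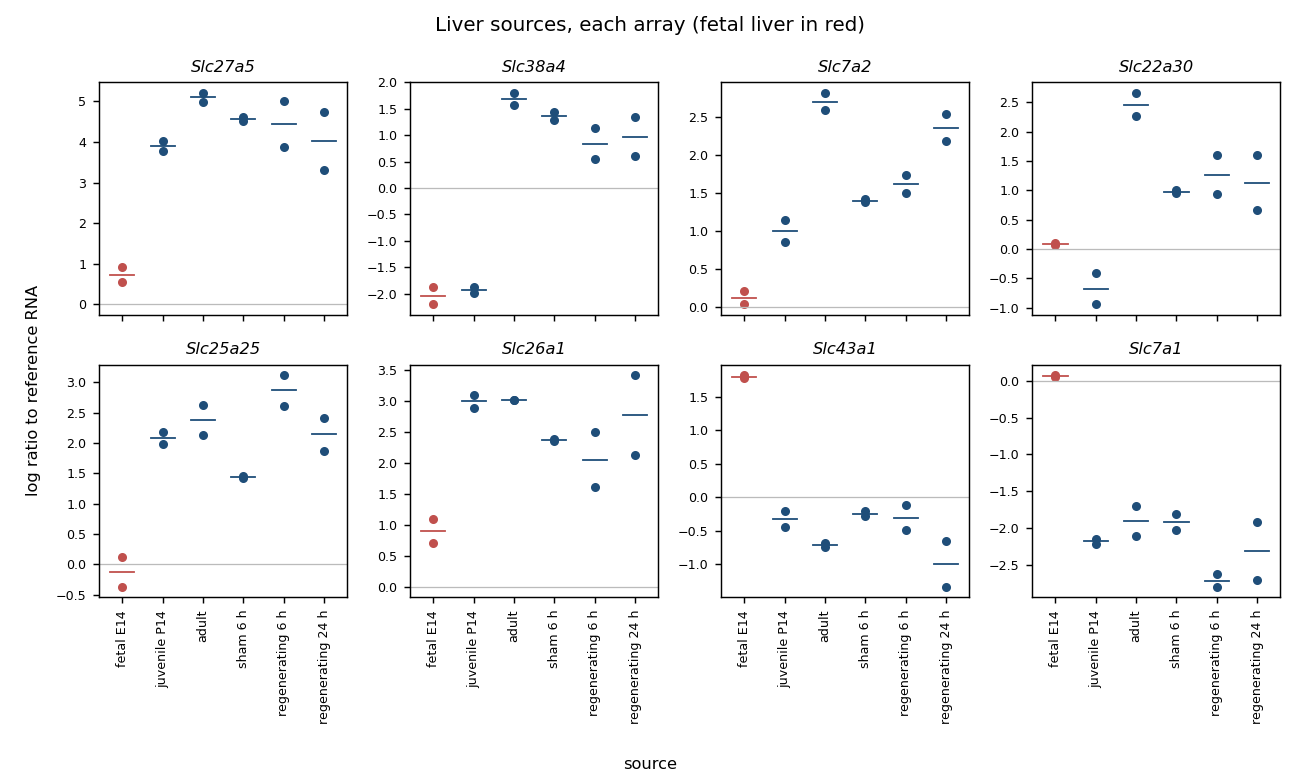
Deposited log ratios of Slc genes on each array of fetal (embryonic day 14), juvenile (postnatal day 14), adult, sham-operated (6 hours) and regenerating liver (6 and 24 hours), 1 panel per gene, 1 point per array and a line at the source mean. Slc43a1 and Slc7a1 are shown as genes higher in fetal than in adult liver. Slc27a5 is high from postnatal day 14 on, whereas Slc38a4 and Slc22a30 are high only from the adult on.

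Liver regenerating for 24 hours differed little from adult liver in this family. As deposited 0 members were higher and 3 lower (1.01% and 2.13% of probes), with a shift of -0.20, while limma gave 34 members an unadjusted p below 0.05 in either direction. Centred, 2 were higher and 1 lower (1.57% and 0.915%), and Slc22a30 was the single gene lower under both scalings. It read 2.26 and 2.66 in adult liver and 0.66 and 1.60 at 24 hours (difference -1.12 ± 0.25, adjusted p = 7.8e-04). The 6-hour sham liver also read 1.00 and 0.95, below both adult arrays, and no sham at 24 hours was among the sources. Slc16a5 (1.11) and Slc16a6 (1.02), both monocarboxylate-type carriers, were higher after centring only. Without the second adult liver array the deposited count fell to 1, and without the second regenerating array it was 6. Slc22a30 itself lost the call without the first regenerating array (-0.855, adjusted p = 0.082) and after quantile normalization (-0.572, adjusted p = 0.43).

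The small intestine was marked by Slc5a1 above all members. As deposited 24 members were higher and 2 lower than in other organs (8.29% and 2.67% of probes). Centred on a shift of 0.17, 17 were higher and 2 lower (6.47% and 3.92%), all of them called under both scalings. On the 6 arrays of duodenum, proximal jejunum and ileum Slc5a1 ranged from 5.17 to 6.84 (median 6.20), against -2.27 to 3.19 elsewhere, a difference of 6.04 ± 0.19 (adjusted p = 4.9e-48). Slc9a3r1 followed, with 2.84 to 3.85 (median 3.48) and a difference of 3.23 ± 0.11 (adjusted p = 4.7e-45), overlapping with the cecum, where it reached 3.21. Slc6a8 ranged from 2.38 to 2.89 against at most 2.07 elsewhere (3.09 ± 0.13, adjusted p = 3.4e-38), and that maximum lay in the distal colon. Only Slc5a1 and Slc6a8 of these were separate from all other organs.

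Other members higher in small intestine served copper uptake (Slc31a1, 2.50 ± 0.09), the basolateral and apical exchange of cationic amino acids (Slc7a7, 2.33 ± 0.10, and its apical counterpart's heavy chain Slc3a1, 2.07 ± 0.09), glucose exit (Slc2a2, 2.18 ± 0.16), nucleobase uptake (Slc23a4, 1.78 ± 0.09), zinc transport (Slc30a4, 1.53 ± 0.14) and fatty acid uptake (Slc27a4, 1.08 ± 0.11). Slc2a2 was regional: it read 3.31 and 3.27 in duodenum and 3.34 and 2.81 in proximal jejunum, but -0.06 and -0.19 in ileum. Slc44a2 (-1.92 ± 0.11) and Slc7a2 (-1.46 ± 0.13) were the lower members. In the large intestine 17 members were higher and 1 lower as deposited (6.22% and 0.579%), and 12 and 1 after centring on a shift of 0.17 (4.53% and 1.2%). Slc5a1 (2.42 ± 0.19), Slc9a3r1 (2.10 ± 0.11) and Slc31a1 (1.56 ± 0.09) were higher there too, along with Slc25a5, an ADP/ATP carrier (1.52 ± 0.29), and Slc25a20, the carnitine/acylcarnitine carrier (1.39 ± 0.10), whose arrays lay above those of all other organs.

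Small intestine was then set against large intestine with source means as units, 4 sources against 3. Higher in small intestine were 14 members and lower 2 (3.32% and 3.29% of probes). Slc5a1 differed by 3.45 ± 0.33 (adjusted p = 2.7e-04), Slc2a2 by 2.88 ± 0.74 (0.017), Slc7a7 by 1.96 ± 0.29 (0.002), Slc35f2 by 1.89 ± 0.17 (2.2e-04), Slc6a8 by 1.69 ± 0.39 (0.012) and Slc3a1 by 1.62 ± 0.27 (0.003), adjusted p in parentheses. Slc25a33, a mitochondrial pyrimidine nucleotide carrier (-1.35 ± 0.17), and Slc7a2 (-1.16 ± 0.15) were higher in large intestine. The call of Slc2a2 was lost without proximal jejunum (adjusted p = 0.06), cecum (0.056) or proximal colon (0.063). Slc6a8 lost its call without proximal colon (0.061) and after quantile normalization (0.065). Slc7a2 lost its call after quantile normalization (-0.907), without the covariate for the form of the array title (-0.723, adjusted p = 0.24) and with the mean of all probes (-0.686), a setting in which Slc3a1 read 0.877. Enterocyte markers averaged 4.25 to 5.64 over the small intestinal sources and 1.52 to 2.27 over the large, and the smooth muscle marker Cnn1 read 2.61 to 3.68 in the latter. The part of these proportions in the differences was not tested.

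On the probes used, the iron carriers followed position along the gut. Slc11a2, the apical iron importer, read 2.29 and 2.87 in duodenum and -0.31 to 0.40 in the other adult gut sources. Slc40a1, the basolateral iron exporter, read 3.58 and 3.87 in duodenum, -0.27 and -0.33 in proximal jejunum, -0.87 and -1.04 in ileum and 1.71 and 1.89 in distal colon. Both were thus high in duodenum, and Slc40a1 was high again in distal colon while Slc11a2 was not. Slc11a2 read 1.38 to 4.04 on arrays of duodenal tumours and -1.10 to 0.96 on those of jejunal tumours, so the 2 sites did not overlap. Because the organ mean of the small intestine spans these regions, the highest adult organ of Slc40a1 was the uterus (1.76). The other probe of Slc11a2 was highest in epididymis (0.41), read 0.34 in small intestine and correlated at 0.402 with the probe used. The regional and tumour values of Slc11a2 thus rest on 1 probe. These regional values were not tested.

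In suckling small intestine, 8 members were higher and 3 lower than in the adult (2.1% and 2.21% of probes). The zinc and manganese carrier Slc39a8 read 1.86 and 2.09 in suckling gut and -1.03 to -0.55 on the 6 adult arrays (2.79 ± 0.26, adjusted p = 2.5e-15, deposited scale), although proximal jejunum 46, which was not in this comparison, read -0.01 and 0.34. Slc40a1 read 3.58 and 3.18, which overlapped with adult duodenum (2.55 ± 0.25), as did Slc11a2 with 2.65 and 3.00 (1.90 ± 0.13). Beside duodenum alone, Slc40a1 was no higher in suckling gut, and 1 of the suckling arrays of Slc11a2 lay above both duodenal ones. Slc46a3, a lysosomal carrier, read 3.90 and 3.68 in suckling, 3.35 and 3.52 in newborn and 0.64 and 0.70 in fetal gut (2.52 ± 0.24 against the adult). Slc25a25 read 1.63 and 1.61 against -0.15 to 0.07 (1.68 ± 0.15). Slc23a4 (-1.44 ± 0.18), Slc16a5 (-1.39 ± 0.22) and Slc5a1 (-1.29 ± 0.34, adjusted p = 0.0029) were lower. Slc5a1 still read 4.92 and 4.74 there, above every organ outside the small intestine, and enterocyte markers averaged 5.23, within the adult range. Its call was lost without the second suckling array (-1.20, adjusted p = 0.081) and after quantile normalization (-0.906).

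**Figure D4:**
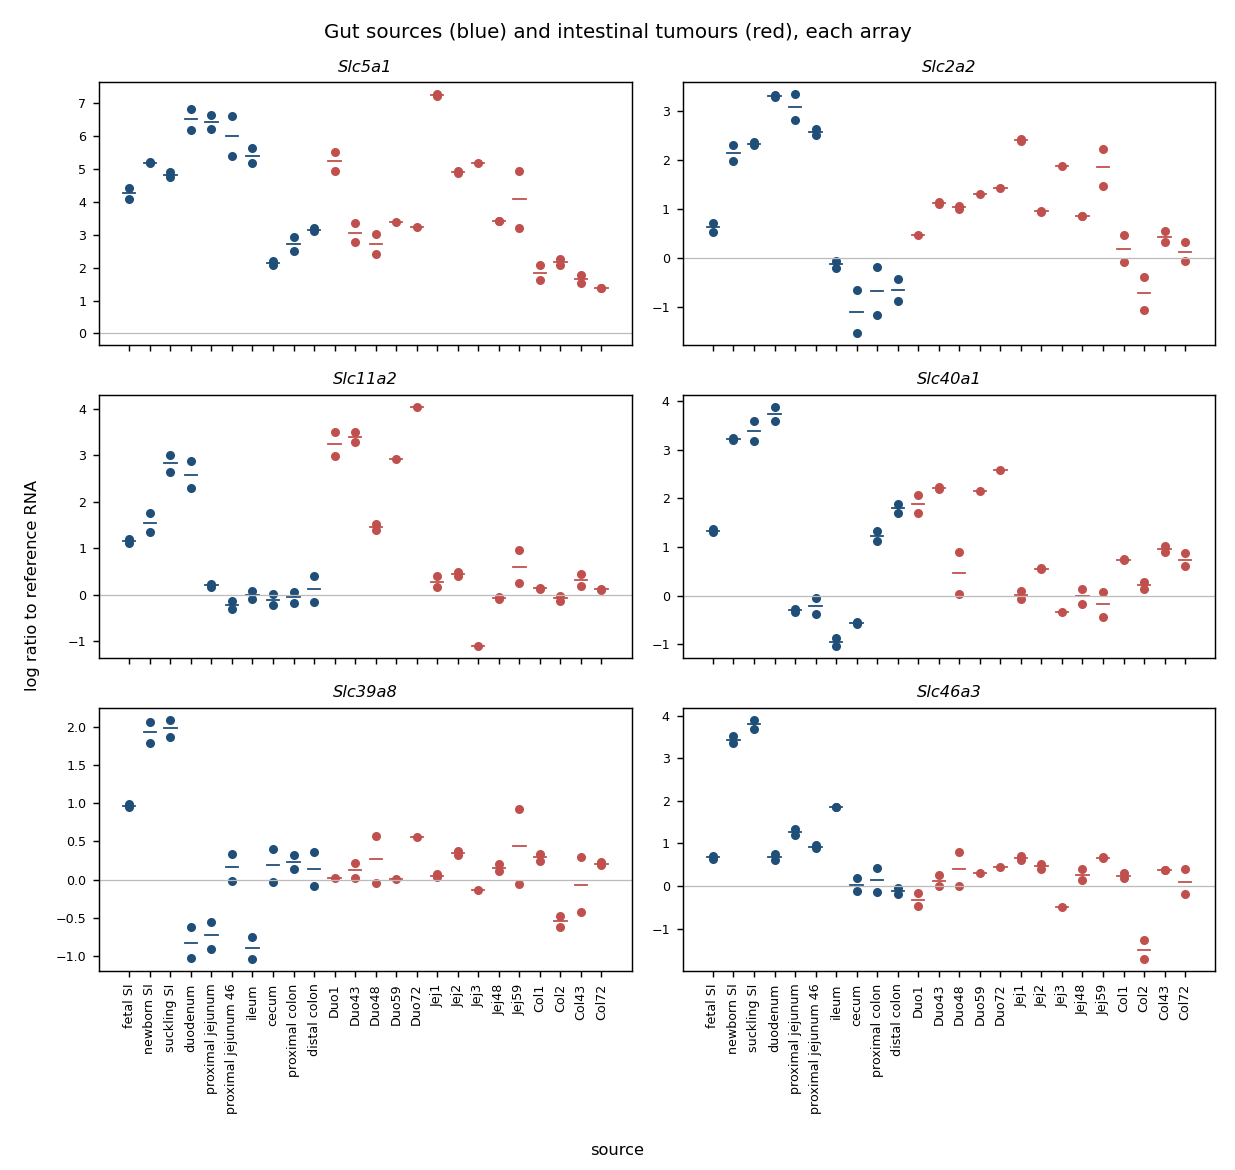
Deposited log ratios of Slc genes along the gut, 1 panel per gene, 1 point per array and a line at the source mean, for fetal, newborn and suckling intestine, adult duodenum to distal colon, and tumours. Slc11a2 and Slc40a1 are high in duodenum and suckling gut, Slc2a2 is near 0 in ileum, and Slc39a8 is high in suckling gut.

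Tumours of the small intestine (10 sources) differed from duodenum and jejunum (3 sources) in few members: 0 were higher and 3 lower (0.33% and 0.542% of probes), in a limma fit with the form of the array title as a covariate, where 23 members had an unadjusted p below 0.05. Slc2a2 ranged from 0.46 to 2.43 (median 1.12) in tumours and from 2.52 to 3.34 in normal tissue (-1.58 ± 0.32, adjusted p = 0.029). Slc25a36 ranged from -1.27 to 0.34 against 0.38 to 1.47 (-1.41 ± 0.29, adjusted p = 0.029), and Slc35f2 from 0.38 to 1.42 against 1.64 to 2.91 (-1.32 ± 0.21, adjusted p = 0.019). None of the 3 overlapped with normal tissue. They were chosen by their calls on these same arrays, so the lack of overlap is no separate support. Duo48 and Jej48, and Duo59 and Jej59, share a number in the labels, which do not say whether it marks an animal, and all tumours were treated as separate units. All 3 calls were lost after quantile normalization and when either duodenum or proximal jejunum was left out, and the count was 1 without Duo48 or Jej2, 5 without Jej1 and 6 without proximal jejunum 46. The enterocyte markers ranged from 2.98 to 5.46 in these tumours against 4.88 to 5.64 in the normal sources. Slc5a1 was not called (-1.56 ± 0.45, adjusted p = 0.10) and ranged from 2.41 to 7.27 in the tumours.

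In colon tumours (4 sources) against large intestine (3 sources), 1 member was higher and 3 lower (1.46% and 2.3% of probes). Slc44a2 ranged from -0.07 to 0.91 in tumours and from -1.80 to -0.62 in normal tissue (1.79 ± 0.29, adjusted p = 0.0066). Slc39a4, the apical zinc importer, ranged from -1.77 to 0.11 against 0.79 to 1.27 (-1.11 ± 0.18, adjusted p = 0.0074). Slc25a34, a mitochondrial carrier (-1.39 ± 0.20, adjusted p = 0.0044), and Slc44a1, a choline transporter (-1.08 ± 0.23, adjusted p = 0.021), were also lower. Enterocyte markers averaged -1.5 to 0.93 in these tumours and Cnn1 0.2 to 1.02, both below normal large intestine. Their part was not tested. Without the tumour Col1 the count was 10. Slc44a1 lost its call without Col1, cecum or distal colon, and Slc25a34 without the title covariate (-0.99, adjusted p = 0.055).

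In the kidney, Slc3a1 and Slc7a7, subunits of amino acid exchangers, differed most from other organs. As deposited 11 members were higher and 1 lower than in other organs (3.31% and 3.48% of probes), and centred on a shift of -0.14 the numbers were 11 and 0 (4.16% and 2.33%). Slc3a1, the heavy chain of the apical cystine and dibasic amino acid exchanger, read 1.93 and 2.76 (2.89 ± 0.16, adjusted p = 1.1e-29). Slc7a7 read 2.26 and 2.66 (2.77 ± 0.16, adjusted p = 2.2e-27). Both overlapped with small intestine, their next organ. Slc5a1 (2.36 ± 0.31), Slc26a1 (2.27 ± 0.24), Slc6a8 (1.94 ± 0.21), Slc2a2 (1.93 ± 0.26), Slc9a3r1 (1.75 ± 0.18), Slc16a12 (1.42 ± 0.20), Slc31a1 (1.27 ± 0.15) and Slc44a1 (1.24 ± 0.16) were higher as well. Without the second adult kidney array Slc16a12 (0.781, deposited) and Slc44a1 (0.942) lost the call, and with the mean of all probes Slc31a1 (0.519) did. At an unadjusted p below 0.05 limma had 47 members in either direction.

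Slc17a3, an organic anion and phosphate carrier, was called higher in kidney (1.52 ± 0.46, adjusted p = 0.0083), but its 2 arrays read -1.06 and 3.83. Each kidney source had 1 array with the code AC in its title and 1 with AF, and the AC array was the lower one each time: -0.45 against 0.84 in fetal, -1.10 against 1.46 in newborn and -1.06 against 2.89 in injured kidney. Without the second adult kidney array the difference turned to -1.06. No level of Slc17a3 in kidney was taken from these arrays.

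The promoters of the kidney and gut carriers Slc5a1, Slc3a1 and Slc7a7 are shown because these genes were high in the same organs. Each run is the 250 bases before the RefSeq start (GRCm38.p6), 5′ to 3′ on the gene's strand, with capitals marking a match to GTTAAT, the core site bound by HNF1 proteins, or CAAAGTCCA, an HNF4-type site, searched on both strands.
Slc5a1, chr5:33103969-33104218, plus strand: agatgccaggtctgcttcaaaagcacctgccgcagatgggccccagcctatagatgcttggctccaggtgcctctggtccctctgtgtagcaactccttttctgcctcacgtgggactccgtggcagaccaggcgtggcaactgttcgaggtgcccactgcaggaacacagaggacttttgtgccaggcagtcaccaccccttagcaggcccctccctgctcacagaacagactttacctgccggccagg
Slc3a1, chr17:85028097-85028346, plus strand: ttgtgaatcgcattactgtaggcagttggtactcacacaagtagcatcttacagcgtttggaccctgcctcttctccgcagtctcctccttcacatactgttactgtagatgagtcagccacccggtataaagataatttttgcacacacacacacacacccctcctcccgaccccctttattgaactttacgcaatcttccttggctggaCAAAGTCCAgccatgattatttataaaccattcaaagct
Slc7a7, chr14:54409473-54409722, minus strand: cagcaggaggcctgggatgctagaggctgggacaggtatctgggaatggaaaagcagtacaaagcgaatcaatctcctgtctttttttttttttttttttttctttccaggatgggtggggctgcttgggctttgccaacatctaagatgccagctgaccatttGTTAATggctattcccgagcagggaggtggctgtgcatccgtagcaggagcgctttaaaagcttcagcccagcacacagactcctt
The Slc3a1 promoter held CAAAGTCCA 30 bases before the start, a motif found in 0.384% of 32851 mouse promoters and in no other of the 92 members with a sequence. Slc7a7 held GTTAAT 80 bases before 1 of its 5 listed starts, a motif found in 6.43% of promoters and in 3 other members, Slc16a10, Slc34a1 and Slc36a1. Slc5a1 held neither in this window. Such matches describe letters only.

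Before and shortly after birth Slc7a7, Slc3a1, Slc26a1 and Slc6a8 were lower than in adult kidney. As deposited 1 member was higher and 4 lower (7.03% and 1.77% of probes), and centred on a shift of 0.11, 0 and 4 (5.42% and 2.04%), with 24 at an unadjusted p below 0.05 in limma. The deposited count was 8 without the second adult kidney array. Slc7a7 read 0.56 and 0.54 in fetal and 1.17 and 1.40 in newborn kidney, against 2.26 and 2.66 in the adult (-1.65 ± 0.19, adjusted p = 2.4e-11). Slc3a1 read 1.03 and 0.97 in fetal and 0.89 and 0.95 in newborn kidney (-1.495 ± 0.19, adjusted p = 2.4e-10). Slc26a1 (-1.49 ± 0.29, adjusted p = 3.1e-05) and Slc6a8 (-1.37 ± 0.26, adjusted p = 1.3e-05) were lower too, and no array of either age overlapped with the adult ones. Without the second adult kidney array the deposited difference of Slc3a1 was -0.971. With the mean of all probes that of Slc6a8 was -0.8845. Both are smaller than a call requires. Tubule markers averaged 0.406 in fetal, 1.0 in newborn and 1.77 in adult kidney, and their part was not tested.

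After folic acid injury Slc3a1 was at 0.32 and 0.60, below the fetal kidney. As deposited 4 members were higher and 4 lower than in adult kidney (2.01% and 1.66% of probes), and centred on a shift of 0.12, 3 and 4 (1.45% and 2%). Slc3a1 differed by -2.01 ± 0.22 (adjusted p = 3.2e-12), Slc5a1 by -1.59 ± 0.43 (0.0073), Slc25a36 by -1.29 ± 0.22 (5.5e-06) and Slc7a7 by -1.18 ± 0.22 (5.4e-05). Slc25a36 read -0.66 and -0.54 in injured and 0.39 and 0.73 in adult kidney. Slc16a6, a member of the monocarboxylate carrier family, read 0.72 and 1.07 against -0.86 and -0.43 (1.42 ± 0.26, adjusted p = 2.4e-05). The creatine transporter Slc6a8 was not called: its injured arrays (2.04 and 2.25) lay above the adult ones (1.14 and 1.40). Tubule markers averaged 1.01 against 1.77, and since the adult kidney's strain is not given, strain and injury cannot be told apart. Of the 8 calls, 6 were lost when 1 of the 4 arrays was left out: those of Slc10a3 (1.16), Slc6a19os (2.24), Slc5a1, Slc7a7, Slc25a36 and Slc39a10, a zinc importer. Slc39a10 (1.04 as deposited) fell to 0.898 without the first adult array and to 0.790 (adjusted p = 0.09) without the second injured array. Slc7a7 was also lost after quantile normalization (-0.52, adjusted p = 0.076).

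**Figure D5:**
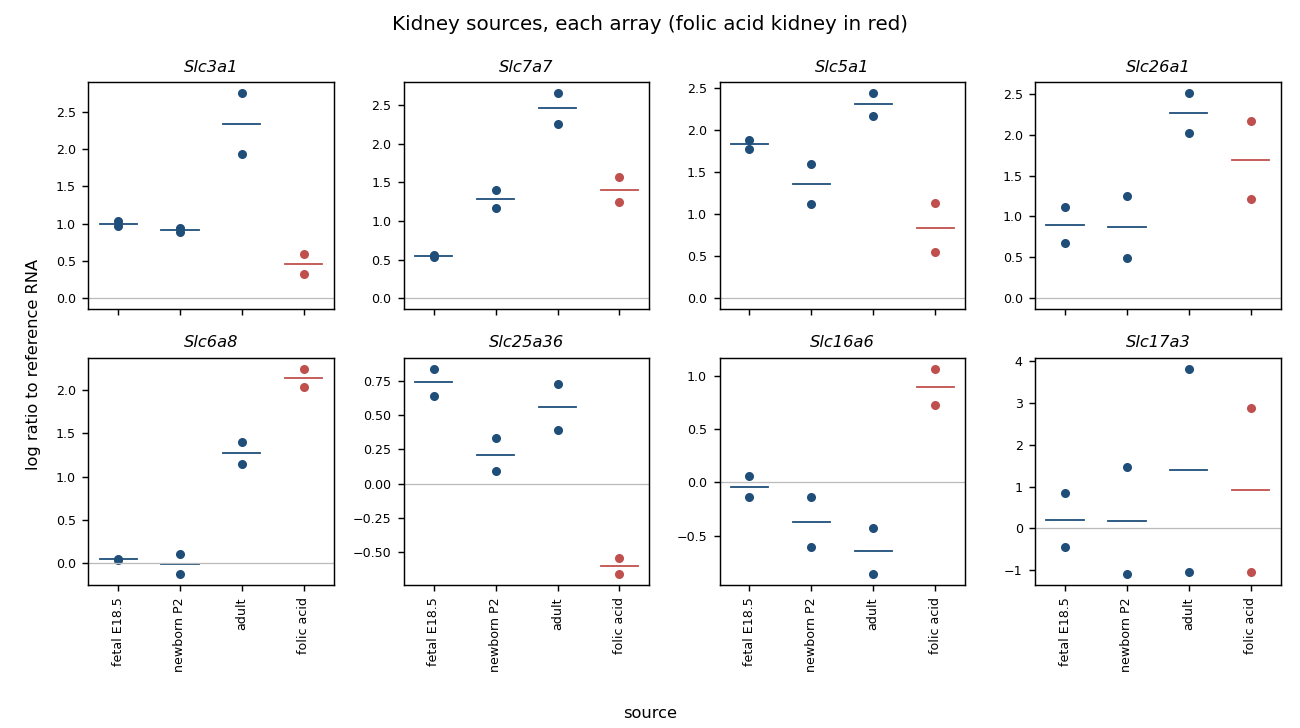
Deposited log ratios of Slc genes on each array of fetal, newborn, adult and folic acid-injured kidney, 1 panel per gene, 1 point per array and a line at the source mean. Slc3a1 and Slc7a7 are highest in adult kidney, and Slc6a8 and Slc16a6 are highest in the injured kidney.

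In heart 4 members were higher and 2 lower (2.13% and 1.59% of probes), and in skeletal muscle 4 and 2 as deposited and 4 and 1 after centring on a shift of -0.11 (3.88% and 2.08% as deposited, 4.53% and 1.45% centred). Slc20a2, a sodium-phosphate cotransporter, was higher in both: it read 2.65 and 2.87 in skeletal muscle (2.82 ± 0.18, adjusted p = 2.4e-24) and 2.79, 1.98, 1.60 and 0.52 on the ventricle and atrium arrays (1.62 ± 0.13, adjusted p = 6.8e-20). Slc25a11, the mitochondrial oxoglutarate carrier, was also higher in both (1.31 ± 0.09 in heart and 1.16 ± 0.13 in muscle). Slc9a3r1 was lower in both (-1.34 ± 0.12 and -1.09 ± 0.18). In the ventricle, Slc25a34 read 2.23 and 1.48. The other probe of Slc20a2 did not follow (r 0.013 over sources, organ spread 1.22).

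The embryonic heart held less Slc20a2 (0.47 and 0.72) than the adult ventricle (-1.90 ± 0.25, adjusted p = 2.4e-09) and less Slc25a34 (0.32 and -0.26, -1.94 ± 0.37, adjusted p = 2.3e-05). Slc8a1, the sodium-calcium exchanger of the heart muscle membrane, was higher in the embryo, with 2.98 and 3.23 against 1.61 and 0.84 (1.77 ± 0.37, adjusted p = 9.4e-05). In all 3 members were higher and 3 lower as deposited (8.97% and 1.26%), and 2 and 3 centred on a shift of 0.11 (7% and 1.41%). The heart muscle markers Tnnt2, Nppa and Myl7 averaged 3.47 in embryonic heart, 0.962 in the adult ventricle and 3.21 in the atrium. Their average thus differed between heart chambers too and cannot serve as a measure of heart muscle content. Their part was not tested.

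The source labelled brown fat, where Cidea lay below its level in thymus and thyroid, had 2 members higher and 3 lower (3.72% and 0.972% of probes). Slc25a1, which exports citrate for fatty acid synthesis, read 2.79 and 3.35 against at most 1.65 elsewhere (3.36 ± 0.14, adjusted p = 4.5e-36), and the liver was its second organ (1.63). Slc1a5, a glutamine transporter, read 2.28 and 2.68 against at most 0.93 (2.52 ± 0.19, adjusted p = 3.1e-20). Both lay above every array of all other organs. Without the first brown fat array the count of called members was 9.

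The testis had 2 members higher and 10 lower (9.28% and 10.4% of probes). Slc2a12 read 2.77 and 2.93 against at most 0.57 elsewhere (3.04 ± 0.12, adjusted p = 4.3e-39), and Slc29a3, a nucleoside transporter of lysosomes and mitochondria, read 1.31 and 1.35 against at most 0.44 (1.39 ± 0.14). Among the lower members, Slc25a11 (-2.08 ± 0.12) and Slc25a5 (-2.26 ± 0.42) were below all arrays of other organs. Slc40a1 (-2.34 ± 0.22) overlapped with arrays of epididymis and nervous tissue, which reached -2.46 and -2.83.

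Nervous tissue had 1 member higher and 3 lower (4.2% and 4.26% of probes). Slc3a1 was higher (1.10 ± 0.06, adjusted p = 1.5e-30) with 0.27 to 1.75 over the nervous arrays (median 0.69), while Slc5a1 (-1.62 ± 0.12), Slc10a3 (-1.19 ± 0.12) and Slc40a1 (-1.04 ± 0.09) were lower. With source means in place of arrays as units, Slc3a1 (0.94, adjusted p = 0.081) and Slc40a1 (-1.20, adjusted p = 0.084) were not called, and 0 members were higher and 4 lower, 2 of them shared. Slc40a1 also lost its call after centring and after quantile normalization, and Slc10a3 after the latter. The vesicular carriers of neurotransmitters did not have their highest organ mean in nervous tissue: Slc32a1, which loads vesicles with GABA and glycine, was highest in synovium (hypothalamus 0.51 and 1.18), and Slc18a2, which loads monoamines, in spleen. In perinatal brain 9 members were higher and 1 lower than in adult brain as deposited (10.6% and 1.18%), and 2 and 1 after centring on a shift of 0.22 (6.3% and 1.96%). Slc44a1 read -0.96 to -0.67 in fetal and newborn brain and -0.09 to 0.63 in adult regions (-1.32 ± 0.13, adjusted p = 2.0e-14). Slc27a5 was higher (1.22 ± 0.24, adjusted p = 1.7e-05), with 0.38 to 0.97 against -1.30 to -0.0017. Without the first hippocampus array the deposited count was 5.

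Lung had 2 members higher and 0 lower (2.58% and 0.405% of probes), with 17 at an unadjusted p below 0.05 in limma, namely Slc44a2 (1.43 ± 0.18, adjusted p = 4.1e-10), with 1.45 and 1.34, and Slc39a8 (1.02 ± 0.23). The count was 1 without the first lung, second brown fat or second skeletal muscle array and 4 without the second lung array. Slc44a2 was one of the most organ-dependent members: it was highest in thymus (2.74 and 2.70), higher in lung and skeletal muscle (1.28 ± 0.19, centred), and lower in liver, small and large intestine and brown fat. In lactating against involuting mammary gland it read -2.50 and -2.73 against -0.56 and -0.61 (-1.71 ± 0.26, adjusted p = 6.4e-08). There 0 members were higher and 10 lower as deposited (0.174% and 22% of probes), and 0 and 3 after centring on a shift of -0.32 (0.637% and 13.3%); limma gave 48 members an unadjusted p below 0.05. Slc25a36 (-1.67 ± 0.22) and Slc8b1, the mitochondrial sodium-calcium exchanger (-1.47 ± 0.25), were the others. After quantile normalization 4 members were higher and 4 lower, 1 of them shared with the deposited calls, and Slc44a2 (-0.894), Slc25a36 (-0.788) and Slc8b1 (-0.689) were not called. Leukocyte markers averaged -0.375 in lactating and 0.361 in involuting gland, and their part was not tested.

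Slc14a1, the urea transporter of red cells and kidney vessels, was highest in blood mononuclear cells (2.84 and 2.22), followed by synovium (mean 0.99) and spleen (1.35 and 0.49). Its other probe was highest in bladder (mean 1.26) and spleen (1.25). Erythroid markers averaged 7.79 in the blood source and 3.58 in spleen, and their part was not tested.

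Of a list of 33 genes that power, anchor or complement these carriers, 9 were measured. Pdzk1, a scaffold of apical transporters, Atp1b1, a subunit of the sodium pump, and Abcg2, an apical efflux pump, were higher in kidney and in small intestine. The small intestine had 5 of the 9 higher, with Abcc2 and the sterol transporter subunit Abcg5 added, and 1 lower, Abcb1a. Liver had 3 higher and 1 lower as deposited and 5 and 0 after centring. In both tumour comparisons Abcg2 was the 1 gene called, and it was lower. Of 8638 probes, 286 were higher in kidney, 716 higher and 231 lower in small intestine, and 583 higher and 1311 lower in liver as deposited. After centring, liver had 1190 higher and 535 lower. In tumours, 46 of 8484 probes were lower in small intestine and 197 of 8571 in colon. The counts of the 9 genes were not tested against those of all probes.

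Over all 21 comparisons 74 members were called at least once and 37 never. The same count was not made over all genes, so it does not show whether the family was called more or less often than others. Among those never called, named here after their values were seen, were Slc34a1, the sodium-phosphate cotransporter of the proximal tubule, Slc12a2, the sodium-potassium-chloride cotransporter, and Slc29a1, an equilibrative nucleoside transporter. For Slc34a1 the probe used read 0.87 in liver and 0.59 in kidney, and its other probe was highest in spleen (1.88) with -0.44 in kidney. Both other probes of Slc29a1 were highest in liver (2.23 and 1.64), where the probe used read -0.11. Slc2a8 had values in 9 sources only and entered no organ comparison. Other probes disagreed often: 26 other probes of 22 members correlated with the probe used at -0.236 to 0.959 over sources (median 0.476), and 7 of the 26 had the same highest organ. Slc7a7's other probe also put small intestine (2.58) and kidney (2.26) on top, and that of Slc3a1 put nervous tissue (1.74) before kidney (1.11). Slc2a12's other probes were highest in nasal mucosa and that of Slc7a2 in testis (1.19), so the organ peaks of these genes rest on 1 probe. RefSeq gene models of Slc3a1 and Prepl, Slc26a1 and Idua, Slc7a7 and Oxa1l, and Slc2a12 and Tbpl1 overlap, and without probe positions their signals are uncertain. The same holds for Slc31a1 and Fkbp15, Slc25a25 and Naif1, Slc25a11 and Rnf167, Slc20a2 and Smim19, Slc16a6 and Arsg, and further members.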

How the data were processed

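RNA of 88 mouse sources was measured on 2-colour arrays against a universal mouse reference. The deposited values are log ratios made by the authors, read here as log2; the sources used here do not give the log base, direction, background correction or array normalization. Gene symbols came from the platform annotation: 7540 of 8734 probes had 1 symbol, 14 several and 1180 none.

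For each gene the probe with most values, then the lowest number, was used. Comparisons were fitted with limma 3.58.1 in R 4.3.3 (lmFit, eBayes) over all probes with values on at least 80% of the units, and Benjamini-Hochberg adjusted over all of them. A gene was called at adjusted p below 0.05 and a difference of at least 1. Panel, stage and injury fits used all 171 arrays with 1 mean per source, so that all sources shared the estimate of the spread. Panel fits set an organ against the mean of 21 other organs. Gut and tumour fits used the means of the compared sources only. Scripts were tested on simulated data. Centring array medians, quantile normalization, other probes, complete probes, title lot and left-out arrays were alternatives. Named genes were, per comparison, up to 10 called members with the largest differences each way, all members set apart in 1 organ, and the 4 of each substrate group with the widest organ spread. Slc11a2 along the gut, Slc32a1, Slc18a2, Slc34a1 and Slc12a2 were added after their values were seen.

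Members, gene lists and tests were chosen with earlier results of these data known. Promoters are RefSeq's. Of 111 members, 92 had a sequence. Figures were drawn with matplotlib 3.10.9.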

Additional observations from a re-analysis of the deposited data

Results flagged for a closer look

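Among 37 groups of 4 to 8 sources examined for a source far from the rest, 3 held one, where chance gives about 1 in 20 groups. Slc5a1, the sodium-glucose cotransporter, averaged 0.0657 in cerebellum, while the nearest of the other nervous sources was at -1.22 (8 sources). Slc7a2, a cationic amino acid transporter, averaged 0.265 in proximal jejunum 46, with the nearest of the other small intestinal sources at -1.27 (4 sources). Proximal jejunum 46 alone of these sources had array titles that start with a hash sign, so title form and source cannot be told apart. Slc9a7, an organellar sodium-proton exchanger, averaged 0.214 in striatum, with the nearest other brain region at -0.561 (6 regions).

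The tumour differences of small intestine and colon were compared by the difference itself. Of 8494 probes, 63 differed at an adjusted p below 0.05 in limma, 2 of them members, and 22 members had an unadjusted p below 0.05. Slc2a2 differed by -2.47 (SE 0.48, adjusted p = 0.015): it was lower than normal in small intestinal tumours and not called in colon tumours. Slc16a6 differed by -1.33 (SE 0.29, adjusted p = 0.032), and it was called in neither tumour site alone. Numbers 43, 48, 59 and 72 recur between tumours of different sites, which were treated as separate units. With the number as a replicate block the values were -2.47 (adjusted p = 0.015) for Slc2a2 and -1.33 (adjusted p = 0.033) for Slc16a6.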

How the results depend on the processing

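Counts of called members, as deposited, kept within 1.5 times under most alternatives. Adjusted p alone gave 74 in nervous tissue, 30 in kidney, 75 in liver, 87 in small intestine, 61 in large intestine, 35 in heart, 36 in skeletal muscle, 23 in brown fat, 58 in testis, 11 in lung, 13 in kidney around birth, 67 in fetal liver, 11 in regenerating liver, 28 in suckling gut, 45 in perinatal brain, 16 in embryonic heart, 37 in lactating gland, 42 in small against large intestine and 9 in colon tumours. Only probes with all values gave 2 in nervous tissue, 5 in kidney, 23 in liver, 16 in small intestine, 9 in large intestine, 3 in brown fat, 6 in testis and 1 in lung, with fewer members tested. Quantile normalization gave 2 in nervous tissue, 19 in liver, 16 in small intestine, 15 in fetal liver, 0 in regenerating liver, 2 in perinatal brain and 1 in small intestinal tumours, a higher member that is none of the 3 called as deposited, and kept the highest organ of 72 of 110 members. Centring gave 1 in lung, 3 in perinatal brain and 3 in lactating gland, and kept 94 highest organs. Colon tumours without the title covariate gave 7. Means of all probes kept 105 highest organs.

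With 1 array or source left out, counts ranged from 2 to 5 in nervous tissue, 6 to 15 in kidney, 23 to 41 in liver, 18 to 31 in small intestine, 10 to 18 in large intestine, 4 to 8 in heart, 4 to 9 in skeletal muscle, 3 to 9 in brown fat, 7 to 14 in testis and 1 to 4 in lung. They ranged from 5 to 8 in kidney around birth, 6 to 7 after folic acid, 33 to 39 in fetal liver, 1 to 6 in regenerating liver, 9 to 14 in suckling gut, 5 to 12 in perinatal brain, 5 to 9 in embryonic heart, 8 to 11 in lactating gland, 13 to 18 in small against large intestine, 0 to 6 in small intestinal and 3 to 10 in colon tumours. Slc17a3 in kidney reversed to -1.06 (adjusted p = 0.15) without the second adult kidney array and rose to 3.82 without the first. Leaving out arrays of other organs, organ means of other probes, lowest organs and the tumour block were chosen after seeing the data. Other causes were not tested. No number joins a tumour with normal tissue, but 43, 48, 59 and 72 recur between tumour sites. With these numbers as a replicate block, small intestinal tumours had 3 called members, all shared with the fit without it (correlation -0.11 within numbers). The number of arrays, 2 in most sources, limits precision.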

Other observations

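In the lung, sampled from embryonic day 13.5 to the adult, Slc39a10, a plasma membrane zinc importer, read 1.34 and 1.85 at day 13.5, 0.89 on both arrays at day 16.5 and 0.45 and 0.50 at day 18.5. It then read 0.39 and 0.34 at postnatal day 1 and -0.07 and 0.19 in the adult. Slc44a2 ran the other way, from 0.15 and 0.27 at day 13.5 through 0.82 and 0.79 at day 16.5 and 1.10 and 1.02 at day 18.5 to 1.45 and 1.34 in the adult. These stages were not tested against each other.

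Outside the adult organs, Slc39a10 had its highest source in anagen hair (2.33 on both arrays), and Slc5a3, the sodium-myo-inositol cotransporter, in synovium with acute arthritis (2.05 and 2.11). Slc35f2 was highest in the tail of the epididymis (3.52 and 3.56). The single array of CD4 T cells activated by antibodies to CD3 and CD28 was the highest source of Slc7a1 (0.84) and Slc25a15 (0.85), carriers of cationic amino acids and of ornithine.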
